A study of Mus musculus with 6 samples.

Results

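The long noncoding RNAs Malat1, Meg3, Rian, Mirg, Neat1, Miat, Snhg11, Peg13, Pantr1 and Gas5 were followed by name in the forebrain of mice on 2 diets. They were chosen by gene symbol, and no measured value enters that rule, but the set was drawn up with earlier results of these data known. Of these 10 RNAs, 9 had an entry among the 23282 entries of the count tables, and Mirg was not analysed here. The mice were wild-type C57BL/6J males of 8 to 10 weeks of age, fed either a normal chow diet (NCD) or a high-fat diet (HFD) with 60% of its calories from fat for 10 days. RNA came from a forebrain hemisphere without the olfactory bulb and cerebellum, and each diet had 3 libraries, sequenced from the 3′ ends of polyadenylated RNA (QuantSeq). Nothing in the sample descriptions states that the libraries of a diet came from separate animals, so the p-values measure only the spread between these libraries, which may be technical. The tissue was a bulk mixture of cells, so fewer cells that express an RNA and less RNA per cell cannot be told apart, and whether neurons or other cells held these RNAs could not be seen.

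Long noncoding RNAs are transcribed and usually spliced and polyadenylated like mRNAs but are not read as proteins, and many act in the nucleus. Malat1 resides in nuclear speckles, where splicing factors are stored, and Neat1 is the scaffold on which paraspeckles are built. Miat, also called Gomafu, forms its own spotted domains in neuronal nuclei and binds splicing factors. Meg3, Rian and Mirg are made from the maternal chromosome of the imprinted Dlk1-Dio3 region, while Dlk1, Rtl1 and Dio3 are made from the paternal chromosome. Peg13 is an imprinted RNA inside an intron of Trappc9. Gas5 and Snhg11 carry snoRNAs, small guides for RNA modification, in their introns. Pantr1 is transcribed next to the neural transcription factor gene Pou3f3.

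The positions below are those of the GENCODE annotation on GRCm38, the mm10 build used for alignment. Malat1 (chr19:5795690-5802672) and Neat1 (chr19:5824708-5845478) lie on the minus strand 22.0 kb apart. On the plus strand of chromosome 12, Meg3 (chr12:109541001-109571726) is followed after 32.2 kb by Rian (chr12:109603940-109661716), which is followed after 68.0 kb by Mirg (chr12:109729764-109749460). The annotation places 4 miRNAs and 13 snoRNAs within Rian, 2 miRNAs within Meg3, 15 miRNAs within Mirg, 10 snoRNAs within Gas5 and 2 snoRNAs within Snhg11. The remaining members are Miat (chr5:112213228-112229395, minus strand), Snhg11 (chr2:158375638-158386145, plus strand), Peg13 (chr15:72805600-72810324, minus strand), Pantr1 (chr1:42590782-42694842, minus strand) and Gas5 (chr1:161034422-161038539, plus strand). Snhg11 is typed as protein coding in GENCODE and as a long noncoding RNA in RefSeq. Exons of Malat1, Meg3 and Miat share bases with an opposite-strand gene (Gm37376, Gm26906 and Gm26953), and the use of strand in counting was not given in the sources used here, so reads of these pairs may not have been kept apart.

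A 3′ library is primed with oligo(dT), so the ends of these RNAs and the runs of A inside them are the sequences on which their counts depend. They are printed below as the transcribed strand, 5′ to 3′, from the GENCODE transcripts. The first group gives the last 40 bases of a transcript, with the poly(A) signal AATAAA or ATTAAA in capitals.
Malat1, 6983 bases (chr19:5795690-5795729, minus strand): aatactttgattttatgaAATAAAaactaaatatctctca
Meg3, 1896 bases (chr12:109571682-109571721, plus strand): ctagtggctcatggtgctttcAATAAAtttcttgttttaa
Neat1, the short isoform (chr19:5842307-5842346, minus strand): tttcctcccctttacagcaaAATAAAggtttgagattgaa
Neat1, the long isoform (chr19:5824708-5824747, minus strand): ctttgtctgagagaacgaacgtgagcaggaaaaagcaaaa
Miat, 9163 bases (chr5:112213228-112213267, minus strand): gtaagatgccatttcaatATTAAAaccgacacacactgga
Peg13, 4725 bases (chr15:72805600-72805639, minus strand): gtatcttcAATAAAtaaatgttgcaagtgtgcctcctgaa

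The short isoform of Neat1, of 3004 bases, had the signal 20 bases before its end, whereas the long isoform of 20771 bases had none in this window. The long isoform of Neat1 and Malat1 are known to end in a genome-encoded A-rich tract cut by RNase P, besides any ordinary poly(A) tail. At least 1 annotated transcript with a poly(A) signal in its last 40 bases was found for 9 of the 9 counted RNAs, against 87.9% of the 13246 tested genes with a transcript sequence. A run of at least 10 A was present in a transcript of 4 of them (Malat1, Meg3, Rian and Pantr1), against 27.3% of those genes. The longest runs of Malat1 and Rian, in capitals with the bases on either side, were as follows.
Malat1, 6983 bases (chr19:5795973-5796014, minus strand): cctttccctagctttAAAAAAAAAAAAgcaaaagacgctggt
Rian, 8089 bases (chr12:109652214-109652258, plus strand): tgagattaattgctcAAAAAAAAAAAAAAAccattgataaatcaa
The Malat1 run of 12 A began at base 6674 of 6983, close to the 3′ end, and the Rian run of 15 A began at base 5309 of 8089. The longest run of Meg3 had 16 A and that of Pantr1 12 A. Which reads came from a run of A and which from a poly(A) tail was not tested, since the tables hold 1 count per gene.

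The start sites of Meg3 and Gas5 are shown because both held the cAMP response element TGACGTCA, the recognition sequence of CREB family factors. Of the 10 RNAs, 7 had a RefSeq promoter window on GRCm38.p6 from 250 bases before to 50 bases after the start. On either strand TGACGTCA was present in 1.79% of all 32851 such windows, TATAAA in 13.6%, CCAAT in 37.4% and GGGCGG in 35.7%. The 7 RNAs had 9 windows. TGACGTCA was found in 2 of these windows (Meg3 and Gas5) and TATAAA in 1 (Meg3). CCAAT was found in 2 (Meg3 and Mirg) and GGGCGG in 3 (Gas5 and Miat). The stretches from 60 bases before to 50 bases after the start follow, with TGACGTCA and TATAAA in capitals, and a match describes the letters only.
Meg3 (chr12:109540936-109541045, plus strand): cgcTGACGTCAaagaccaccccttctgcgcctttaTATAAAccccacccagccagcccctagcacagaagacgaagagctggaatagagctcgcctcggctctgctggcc
Gas5 (chr1:161035106-161035215, plus strand): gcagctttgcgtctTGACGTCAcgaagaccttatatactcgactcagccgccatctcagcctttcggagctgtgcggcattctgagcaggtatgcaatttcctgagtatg
The element began 57 bases before the Meg3 start and 46 bases before the Gas5 start, and TATAAA began 25 bases before the Meg3 start. The RefSeq start of Gas5 used here lies inside the GENCODE span given above, downstream of its first base.

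Malat1 and Meg3 were among the most abundant RNAs of the forebrain. By mean CPM, the count scaled to the size of its library, over the 6 libraries, Malat1 ranked 6 among 23282 entries with 4710 CPM, Meg3 ranked 11 with 3779 CPM and Snhg11 ranked 68 with 1021 CPM. The other 6 RNAs were of middle abundance. Peg13 had 130 CPM (rank 1531), Gas5 122 CPM (rank 1653), Rian 116 CPM (rank 1753), Neat1 108 CPM (rank 1888), Pantr1 81.8 CPM (rank 2528) and Miat 54.7 CPM (rank 3692). The range from Malat1 to Miat was thus wide.

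Per kilobase (kb) of merged exon the order changed, because Gas5 and Pantr1 have short exons and Rian and Neat1 long ones. Malat1 led with a mean of 674 CPM per kb, followed by Meg3 with 209 CPM per kb and Snhg11 with 120 CPM per kb, and the 6 libraries of neighbours in this order did not overlap. Gas5 (32.5 CPM per kb) and Peg13 (27.6 CPM per kb) overlapped in their libraries and were not separated. Pantr1 followed at 18.4 CPM per kb, below both. Rian (6.38 CPM per kb), Miat (5.89 CPM per kb) and Neat1 (5.20 CPM per kb) formed the lowest step, in which Rian overlapped Miat and Miat overlapped Neat1. A 3′ count need not grow with transcript length, so the position of RNAs with long exons in this order depends on the division by length. The levels are shown by library in the plot of CPM per kb.

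**Figure D1:**
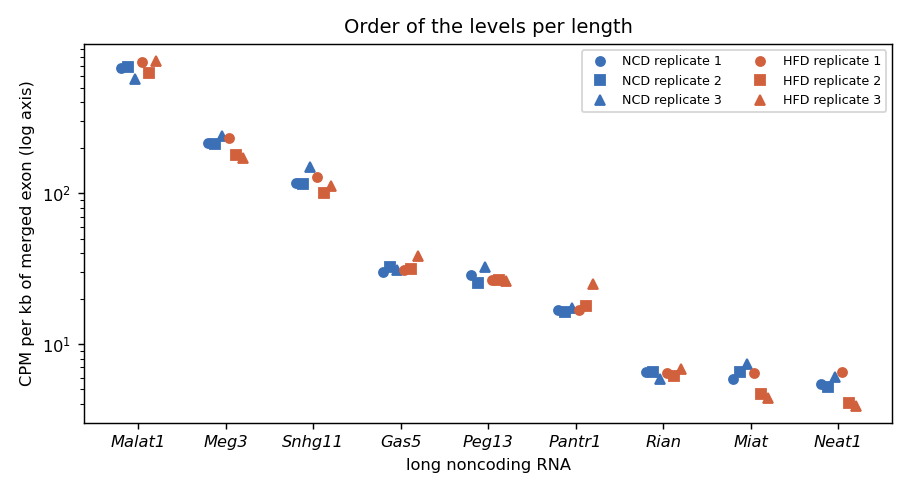
Level of each long noncoding RNA in CPM per kb of merged exon, on a log axis, with 1 point per library (blue, NCD; orange, HFD; circle, square and triangle, replicates 1, 2 and 3). Malat1, Meg3 and Snhg11 stand clear of each other between 674 and 120 CPM per kb on average, and Rian, Miat and Neat1 lie together between 6.38 and 5.20.

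The libraries held 8061348 to 9689372 counts on the NCD and 6842785 to 9119597 on the HFD, and the summed share of the 9 RNAs ranged from 0.909 to 1.12% per library. The lowest count of any of them in any library was 299 (Miat in HFD replicate 3), for which counting error alone gives a coefficient of variation (CV) of 5.78%, against a median CV of 12.8% between libraries of a diet. Neurons were well represented, with 10 of 10 neuronal marker genes tested and their summed level at 6746 to 7065 CPM on the NCD and 6651 to 6838 CPM on the HFD. HFD replicate 3 stood apart, as its 4 pituitary markers with an entry (Gh, Prl, Pomc and Cga) summed to 1263 CPM against 4.17 to 13.2 CPM in the other 5 libraries, with Gh alone at 1092 CPM. Cga was at 0 in NCD replicate 3, HFD replicate 1 and HFD replicate 2, and Prl at 0 in NCD replicate 3 and HFD replicate 2. Hemoglobin and erythroid markers summed to 610 to 738 CPM on the NCD and 762 to 1190 CPM on the HFD. In edgeR 6 of 7 were higher on the HFD at an unadjusted p under 0.05, against 3.68% of all genes in either direction. Hbb-bs and Hbb-b1 had nearly equal counts in each library (1316 and 1298 in NCD replicate 1), and Hbb-bt and Hbb-b2 similar ones (253 and 232). The same reads may thus enter this sum and the 6 genes more than once. Among the liver markers, Ttr was set aside, as the choroid plexus also makes it. Of the others, 4 of 4 tested (Alb, Apoa2, Fgb and Ahsg) were lower on the HFD at an unadjusted p under 0.05. The share of all genes lower at this threshold was 1.98%. Alb and Apoa2 overlapped between the diets, and counts were low, with Fgb at 2 in HFD replicate 1 and Ahsg at 0 in HFD replicate 3. The liver list without Ttr summed to 7.90 to 43.6 CPM on the NCD and 2.89 to 10.2 CPM on the HFD. The part of these markers in the results below was not tested.

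The diets were then compared for each RNA. With edgeR's quasi-likelihood test and Benjamini-Hochberg adjustment over 13771 genes, 0 of the 9 RNAs differed between the diets, with adjusted p from 0.979 to 0.981. The share of all genes called at this threshold was 0%, with a smallest adjusted p of 0.519, while DESeq2 called 2 genes (Cartpt and 8430408G22Rik) and quantile normalization with limma called 0, none of them a long noncoding RNA of this set. At an unadjusted p under 0.05, 1 of 9 RNAs (Miat) passed in edgeR and in DESeq2 and 0 in limma, against 3.68% of all genes in edgeR, and 1.98% of all genes passed with a lower level on the HFD, the direction of Miat. A fold change of at least 1.5 with an unadjusted p under 0.05, the thresholds used in the study, was reached by 0 of 9 RNAs and 1.28% of all genes. The 3 NCD and 3 HFD values overlapped for each of the 9 RNAs, whereas they were separate for 8.81% of all genes. Of the 9 log2 fold changes 5 were below 0, against 50.6% of all genes, and their median was -0.13 against a median over all genes of -0.00245.

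How small a difference could be seen is given by the 95% intervals. All 9 intervals but that of Miat included 0, and the fold changes of HFD over NCD ran from 0.784 for Miat to 1.19 for Pantr1. The interval of Miat reached past a 1.5-fold decrease, with a lower bound of 0.632 for HFD over NCD. The other 8 intervals, with bounds from 0.687 for Neat1 to 1.44 for Pantr1, did not reach a 1.5-fold change in either direction. The within-diet CV ranged from 6.01% for Rian to 22.3% for Neat1, and the median was 8.99% over the 3692 genes tested with a mean CPM at or above that of Miat.

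**Figure D2:**
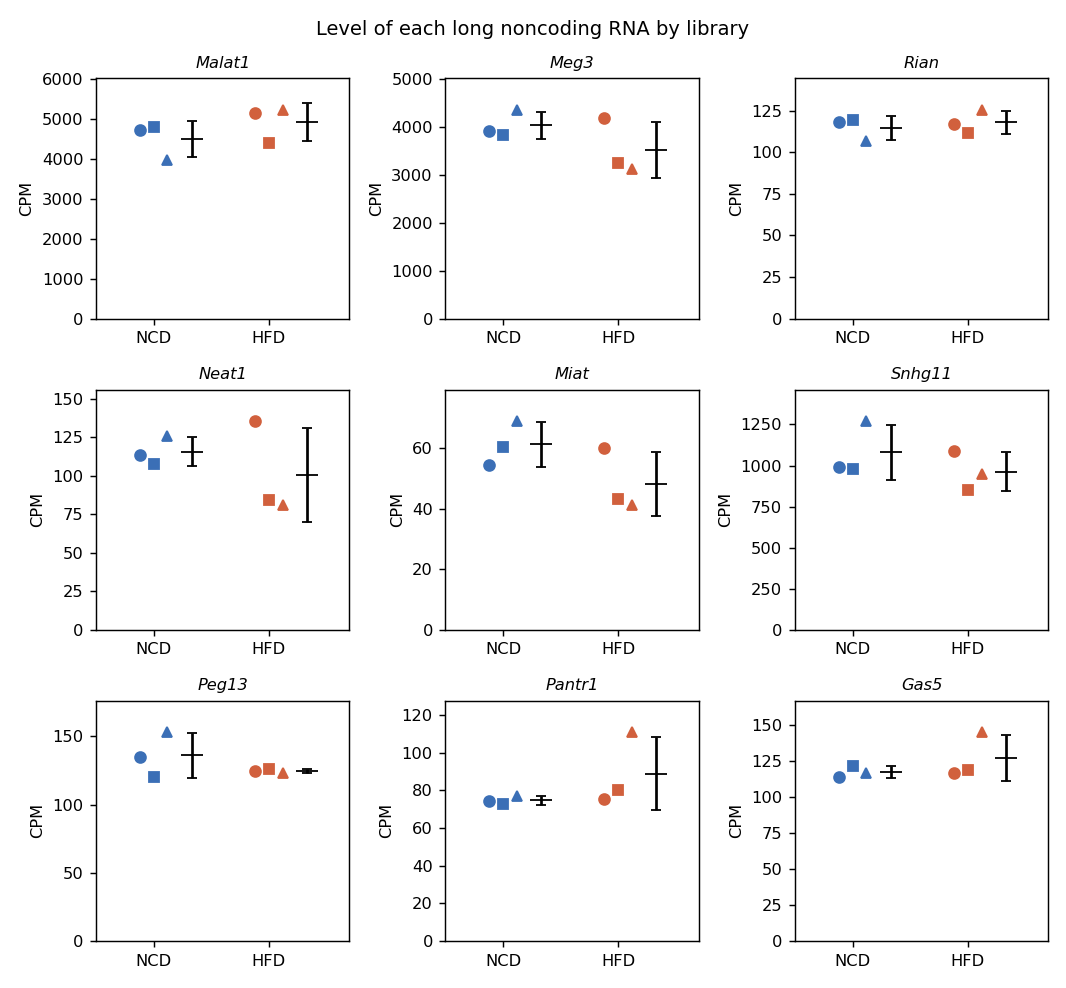
CPM of each long noncoding RNA by library (circle, square and triangle, replicates 1, 2 and 3), with the mean and SD of each diet in black; each vertical axis starts at 0. The diets overlap in each of the 9 panels, and the 2 lower HFD points of Meg3, Neat1 and Miat are replicates 2 and 3.

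**Figure D3:**
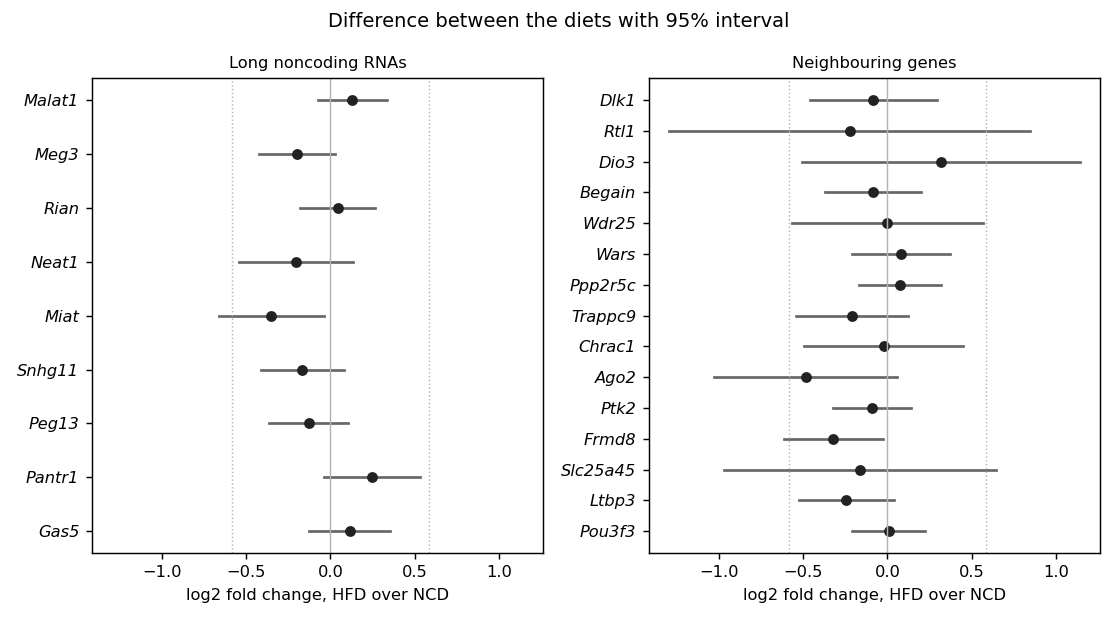
Log2 fold change of HFD over NCD with its 95% interval from edgeR for the 9 long noncoding RNAs and for tested genes that flank them; dotted lines mark a fold change of 1.5 in either direction. Among the long noncoding RNAs the interval of Miat lies below 0 (-0.66 to -0.04), and among the flanking genes that of Frmd8.

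Among the nuclear RNAs, the mean of Malat1 was slightly higher on the HFD and those of Neat1 and Miat lower, and the diets overlapped for each. Malat1 measured 4730, 4793 and 3973 CPM on the NCD and 5149, 4386 and 5229 CPM on the HFD, the lowest library being NCD replicate 3. Its log2 fold change was 0.13 (SE 0.10, 95% interval -0.08 to 0.33, unadjusted p = 0.200), a fold change of 1.09 with an interval of 0.949 to 1.26. Neat1 measured 113, 107 and 126 CPM on the NCD and 136, 84.5 and 81.3 CPM on the HFD. Its HFD libraries thus held both the highest value of the 6 and the 2 lowest. Its log2 fold change was -0.21 (SE 0.16, 95% interval -0.54 to 0.13, unadjusted p = 0.215).

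Miat had the largest log2 fold change in size of the 9 RNAs. It measured 54.3, 60.4 and 69.0 CPM on the NCD and 60.2, 43.2 and 41.1 CPM on the HFD. HFD replicates 2 and 3 lay below all NCD libraries, while HFD replicate 1 lay between NCD replicates 1 and 2, so the diets overlapped. The log2 fold change was -0.35 (SE 0.15, 95% interval -0.66 to -0.04) with an unadjusted p of 0.0290 and an adjusted p of 0.979 in edgeR. Without NCD replicate 2, NCD replicate 3, HFD replicate 2 or HFD replicate 3 its unadjusted p was above 0.05, and without HFD replicate 1 the log2 fold change was -0.54.

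Genes of splicing, nuclear speckle and paraspeckle proteins were compared next. Of 17 genes of nuclear speckle proteins and splicing regulators tested, 1 passed an unadjusted p of 0.05 in edgeR, against 3.68% of all genes. This was Celf3, a splicing regulator of the CELF family, which was at 92.7, 79.6 and 87.3 CPM on the NCD and 76.9, 74.5 and 65.2 CPM on the HFD, with no overlap and a log2 fold change of -0.26 (SE 0.11, adjusted p = 0.979 in edgeR). Its unadjusted p was 0.0326, 0.0675 with limma, and under 0.05 in 2 of 6 fits without a library (without NCD replicate 2 or HFD replicate 1). The 17 log2 fold changes were below 0 for 14 genes with a median of -0.07, from -0.28 for the spliceosome core gene Prpf8 to 0.13 for the SR protein gene Srsf3, and neither of the latter passed. Of 15 genes of paraspeckle proteins 0 passed, with a median of -0.06 and a highest value of 0.13 for Sfpq, which encodes an essential paraspeckle protein. In edgeR 0 genes of either list passed the adjusted threshold.

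Of the genes around Malat1 and Neat1, 4 of 5 were tested. Frmd8 and Ltbp3 were lower in every HFD library than in any NCD library, though neither passed the adjusted threshold. The diets were separate in either direction for 8.81% of all genes. At an unadjusted p under 0.05, 1 of the 4 passed in edgeR, against 3.68% of all genes. Frmd8 measured 29.7, 27.8 and 35.9 CPM on the NCD and 24.8, 25.0 and 25.2 CPM on the HFD, without overlap, with a log2 fold change of -0.32 (SE 0.14, unadjusted p = 0.0339, adjusted p = 0.979 in edgeR). Its unadjusted p was 0.0531 with DESeq2 and 0.0594 with limma, and it was above 0.05 without NCD replicate 3, HFD replicate 1 or HFD replicate 2. Ltbp3, which encodes a binding protein of latent TGF-beta, was also separate between the diets, with 52.7, 51.1 and 51.7 CPM on the NCD and 47.4, 48.7 and 35.1 CPM on the HFD (log2 fold change -0.24, unadjusted p = 0.0850). The long noncoding RNAs beside them differed in sign, as the log2 fold change was 0.13 for Malat1 and -0.21 for Neat1. Slc25a45 overlapped between the diets (log2 fold change -0.16, SE 0.38), and Tigd3 was under the filter on low counts.

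In the imprinted Dlk1-Dio3 region, Meg3 was lower in 2 of the HFD libraries and the means of Rian lay close together. Meg3 measured 3912, 3839 and 4359 CPM on the NCD and 4197, 3257 and 3113 CPM on the HFD. HFD replicates 2 and 3 lay below every NCD library, and HFD replicate 1 lay within the NCD range. The log2 fold change of Meg3 was -0.20 (SE 0.11, 95% interval -0.42 to 0.03, unadjusted p = 0.0846), or 0.873-fold with an interval of 0.746 to 1.02. Rian measured 118, 119 and 107 CPM on the NCD and 117, 112 and 126 CPM on the HFD, with the smallest within-diet spread of the 9 RNAs. Its log2 fold change was 0.04 (SE 0.11, 95% interval -0.18 to 0.27, unadjusted p = 0.693), and the sign turned to -0.0075 without NCD replicate 3 and -0.0036 without HFD replicate 3.

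Meg3 and Rian, although neighbours on the same strand, did not move together over the libraries. The correlation of their log2 CPM over 6 libraries had a Pearson r of -0.52 (exact permutation p = 0.297, 0.594 adjusted over 2 pairs) and a Spearman rho of -0.66 (exact permutation p = 0.175, 0.350 adjusted). Without HFD replicates 2 and 3, the libraries farthest from the median of Meg3, r was -0.85 over 4 libraries. Between Malat1 and Neat1 r was -0.17 (exact permutation p = 0.750) and rho was -0.26 (exact permutation p = 0.658), and r was 0.98 without NCD replicate 3 and HFD replicate 3, so these values rest on single libraries. These tests were two-sided, and both pairs share the libraries and their depth. The 2 planned pairs with Mirg were not possible.

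The ratio of Meg3 to Rian was 33.1, 32.2 and 40.9 on the NCD against 35.9, 29.1 and 24.8 on the HFD. The ratio of Malat1 to Meg3 was 1.21, 1.25 and 0.912 on the NCD against 1.23, 1.35 and 1.68 on the HFD. Both ratios, which were chosen after the values were seen, overlapped between the diets. Exact two-sided permutation tests gave p = 0.3 for Meg3 to Rian and p = 0.2 for Malat1 to Meg3, where 3 libraries against 3 cannot give less than 0.1. Meg3 exceeded Malat1 only in NCD replicate 3, where the oligodendrocyte markers also had their lowest sum, at 7470 CPM against 8417 to 9084 CPM in the other libraries, and the part of these cells in the ratio was not tested.

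Of the genes that flank Meg3 and Rian, 7 of 8 were tested, 0 passed an unadjusted p of 0.05, and their median log2 fold change was 0.000313. Dlk1, a paternally expressed Notch-related membrane protein, measured 137, 152 and 165 CPM on the NCD and 171, 168 and 89.9 CPM on the HFD (log2 fold change -0.08, SE 0.18). HFD replicate 3 was the low library of Dlk1, as it was of Meg3. Rtl1, a paternally expressed gene derived from a retrotransposon, had 9 to 30 counts per library (log2 fold change -0.22, SE 0.51), and Dio3, which inactivates thyroid hormone, had 12 to 22 counts (0.32, SE 0.39), so both were imprecise. For the other flanking genes the log2 fold changes were -0.09 for Begain, 0.00 for Wdr25, 0.08 for Wars and 0.08 for Ppp2r5c. Dio3os, opposite Dio3, had 3 counts in HFD replicate 1, 2 in HFD replicate 3 and 0 elsewhere.

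Few snoRNAs within Rian and Gas5 had an entry of their own, and their counts were low. Mature snoRNAs carry no poly(A) tail. AF357425, within Rian, had 23, 9 and 40 counts on the NCD against 14, 21 and 19 on the HFD. DQ267102 had 3 counts in NCD replicate 3 and 0 elsewhere, and DQ267100 and DQ267101 had 0 in the 6 libraries. Snord47, within Gas5, had 3, 1 and 0 counts on the NCD against 0, 2 and 1 on the HFD. A count of 0 allows up to 3 counts in a library, which covers counting error only.

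The means of Peg13 lay close together, within the spread of the libraries. It measured 135, 120 and 153 CPM on the NCD and 125, 126 and 123 CPM on the HFD, so that the 3 HFD libraries lay close together inside the wider NCD range. The log2 fold change was -0.13 (SE 0.11, 95% interval -0.37 to 0.11, unadjusted p = 0.263). Trappc9, the host gene of Peg13 and a trafficking complex subunit, measured 44.6, 40.02 and 40.6 CPM on the NCD and 45.3, 35.8 and 27.1 CPM on the HFD, with HFD replicate 3 lowest (log2 fold change -0.21, SE 0.16). Of the flanking genes 4 of 5 were tested, 0 passed an unadjusted p of 0.05, and all 4 log2 fold changes were below 0 (median -0.15). That of Ago2, which encodes an Argonaute protein of miRNA silencing, was -0.48 (SE 0.26, unadjusted p = 0.0763), and NCD replicate 3 at 48.6 CPM stood above the 17.2 to 24.8 CPM of the other libraries. Chrac1 (-0.02) and Ptk2 (-0.09) were near 0, and Kcnk9, a potassium channel gene, had 0 counts in the 6 libraries.

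Across 39 other imprinted genes of brain, a list that repeats 5 of the flanking genes named above (Dlk1, Dio3, Rtl1, Trappc9 and Kcnk9), 35 were tested with a median log2 fold change of -0.06. In edgeR 0 passed the adjusted threshold and 1 passed an unadjusted p of 0.05, where the share of all genes was 3.68%. This was Commd1, a gene of copper handling and NF-kB turnover, at 16.8, 21.7 and 16.2 CPM on the NCD and 22.7, 20.7 and 29.97 CPM on the HFD, overlapping between the diets (log2 fold change 0.42, SE 0.17, unadjusted p = 0.0266). Without NCD replicate 1, NCD replicate 3 or HFD replicate 3 the unadjusted p of Commd1 was above 0.05, and without HFD replicate 3 the log2 fold change was 0.25. The lowest log2 fold change was that of Peg10, a retrotransposon-derived gene, at -0.71 (SE 0.34, unadjusted p = 0.0518), with 2.34 CPM in HFD replicate 3 and 5.47 to 10.7 CPM in the other libraries.

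The snoRNA hosts Snhg11 and Gas5 differed in the sign of the log2 fold change, and both 95% intervals included 0. Rian, which also holds snoRNAs, is described above. Snhg11 measured 992, 977 and 1272 CPM on the NCD and 1087, 850 and 951 CPM on the HFD. NCD replicate 3 was its highest library and HFD replicate 2 its lowest. For Snhg11 the log2 fold change was -0.17 (SE 0.12, 95% interval -0.41 to 0.08, unadjusted p = 0.174). Gas5, a growth arrest transcript with a 5′ terminal oligopyrimidine (TOP) start that is degraded when translated, measured 114, 122 and 116 CPM on the NCD and 117, 119 and 145 CPM on the HFD. Only HFD replicate 3 stood above the other 5 libraries. For Gas5 the log2 fold change was 0.11 (SE 0.11, 95% interval -0.12 to 0.35, unadjusted p = 0.327), and without HFD replicate 3 it was 0.0075.

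Of 19 other TOP mRNAs and decay factors of Gas5, 2 passed an unadjusted p of 0.05 in edgeR, both higher on the HFD. The share of all genes that passed was 3.68% in either direction. The median log2 fold change of the list was 0.15, against -0.00245 over all genes. Rpl3, a ribosomal protein gene, measured 230, 259 and 200 CPM on the NCD and 256, 271 and 306 CPM on the HFD (log2 fold change 0.27, SE 0.12, unadjusted p = 0.0304). The unadjusted p of Rpl3 was 0.115 with limma and 0.0533 with library size alone, and it was under 0.05 in 2 of 6 fits without a library (without NCD replicate 2 or HFD replicate 1). Upf2, a factor of nonsense-mediated decay, measured 105, 108 and 94.2 CPM on the NCD and 120, 116 and 124 CPM on the HFD, without overlap (log2 fold change 0.22, SE 0.11, unadjusted p = 0.0490). That of Upf2 was 0.0982 with limma, 0.0836 with library size alone and 0.0616 without the filter, and it was under 0.05 in 0 of 6 fits without a library (0.0535 to 0.1499). Upf1, the helicase of the same pathway, had the lowest log2 fold change (-0.25, unadjusted p = 0.0597). With edgeR's adjustment 0 of the 19 passed. The summed level of the list was 4341 to 4932 CPM on the NCD and 4683, 4846 and 6000 CPM on the HFD, highest in HFD replicate 3, the library in which Gas5 was highest and in which the pituitary markers summed to 1263 CPM. What these have to do with each other was not tested.

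Pantr1 had the highest log2 fold change of the 9 RNAs, and it rested on HFD replicate 3. It measured 74.6, 72.7 and 77.3 CPM on the NCD and 75.3, 80.1 and 111 CPM on the HFD. The 3 NCD libraries and HFD replicates 1 and 2 lay within 72.7 to 80.1 CPM. The log2 fold change was 0.25 (SE 0.13, 95% interval -0.04 to 0.53, unadjusted p = 0.0843), and without HFD replicate 3 it was 0.055. The neighbouring gene Pou3f3 varied little, with 104, 101 and 95.7 CPM on the NCD and 105, 98.3 and 98.7 CPM on the HFD (log2 fold change 0.01, SE 0.10). Pou3f3 did not share the high value of HFD replicate 3, the library with the pituitary markers, and their part in the Pantr1 value was not tested.

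Of 57 further long noncoding RNAs listed, 41 had an entry and 30 were tested, and 0 passed the adjusted threshold or an unadjusted p of 0.05 in edgeR. Their median log2 fold change was 0.05, with 18 above and 12 below 0. The lowest was that of Rmst, an RNA of neural differentiation, at -0.85 (SE 0.43, unadjusted p = 0.0618) on 10 to 33 counts per library, and the highest that of Xist at 0.45 (SE 0.55). Polycomb repressive complex 2, the histone methyltransferase that Meg3 and other long noncoding RNAs have been reported to bind, had 7 of 7 genes tested and 0 passed either threshold, from -0.18 for Jarid2 to 0.28 for the catalytic subunit gene Ezh2.

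Set side by side over the libraries, the RNAs fell into different profiles. Relative to its own mean over the 6 libraries, Meg3 deviated on the log2 scale by 0.22 in NCD replicate 3 and 0.16 in HFD replicate 1, and by -0.20 and -0.27 in HFD replicates 2 and 3. Neat1 (0.25, 0.35, -0.33 and -0.39 in the same libraries), Miat (0.36, 0.16, -0.32 and -0.39) and Snhg11 (0.33, 0.10, -0.25 and -0.09) had the same signs. Malat1 and Rian instead had their lowest value in NCD replicate 3 (-0.24 and -0.13) and their highest in HFD replicate 3 (0.16 and 0.11). Pantr1 and Gas5 were highest in HFD replicate 3 (0.46 and 0.25). In HFD replicate 2 all 9 RNAs were below their own mean, with a median deviation of -0.10, whereas the median over all genes tested in that library was 0.0079. Several of these deviations were small, at -0.01 for Pantr1, -0.03 for Gas5 and -0.05 for Peg13. Pantr1 and Gas5 were below their mean in every library but HFD replicate 3. The share of all genes below their own mean in HFD replicate 2 was not counted.

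Leaving out HFD replicate 1, the HFD library in which Meg3, Neat1 and Miat were high, gave a log2 fold change of -0.34 for Meg3 (unadjusted p = 0.00368), -0.48 for Neat1 (unadjusted p = 0.00158), -0.54 for Miat (unadjusted p = 0.00178) and 0.35 for Pantr1 (unadjusted p = 0.0249). The adjusted p of these 4 RNAs in edgeR was then 0.839. Over all genes 773 had an unadjusted p under 0.05 in this fit, against 507 with all 6 libraries. Each library was left out in turn, and this fit is described because of the values in HFD replicate 1. Its smaller p-values are therefore no support for a difference between the diets. The comparison between the diets for these 4 RNAs depended on which HFD libraries were counted.

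**Figure D4:**
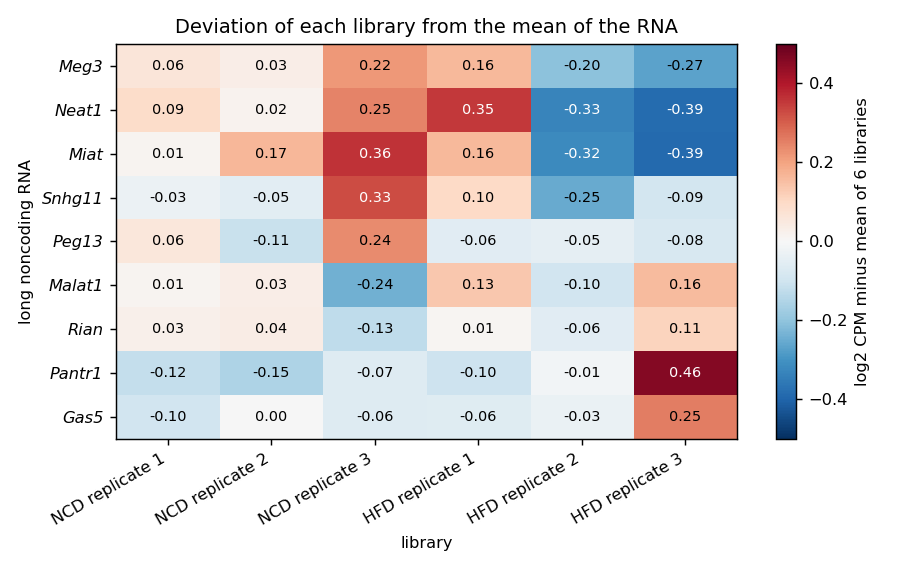
Deviation of each library from the mean of each long noncoding RNA over 6 libraries, in log2 CPM (red, above; blue, below), with the value printed in each cell. Meg3, Neat1, Miat and Snhg11 are above their mean in NCD replicate 3 and HFD replicate 1 and below it in HFD replicates 2 and 3. All 9 RNAs are below their mean in HFD replicate 2, though Pantr1 only at -0.01.

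The genes whose profile over the 6 libraries was most like that of Malat1, by the root mean square difference of centred log2 CPM among 13770 other tested genes, were Mtmr3 (0.038), Fam58b (0.041) and Ndst3 (0.041). Rian was 82nd in this order with a difference of 0.074, closest to Malat1 of the other 8 RNAs, whereas Neat1, the neighbour of Malat1, was 10194th with 0.327. Closest to Meg3 were Dtx1 (0.018), Eml1 (0.024) and Fbxw8 (0.029). Snhg11 was 253rd with 0.104, Miat 278th with 0.106 and Neat1 285th with 0.107, while Rian, from the same imprinted region, was 5184th with 0.227. These orders describe 6 libraries and carry no test.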

How the data were processed

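The authors prepared QuantSeq 3′ libraries, sequenced 75 bp reads, aligned them to mm10 with Bowtie2 and took read counts per gene from Bedtools coverage. The deposited counts per library are whole numbers without normalization, and each entry is a gene symbol. The gene annotation, the use of strand and the versions are not given in the sources used here. Libraries were grouped by the diet in their labels. Of the entries, 44 shared a symbol with another, none of them a long noncoding RNA named here.

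The test was run in R (4.3.3) using the quasi-likelihood functions of edgeR (4.0.16; TMM, filterByExpr at min.count 10 and min.total.count 15, glmQLFit and glmQLFTest, Benjamini-Hochberg adjustment over 13771 genes), which was tested on simulated data. Each SE was obtained as the ratio of the log2 fold change to the root of its F statistic. CPM values use TMM library sizes. Alternatives used DESeq2 1.42.0, quantile-normalized log2(CPM + 1) with limma 3.58.1, library size alone, no filter, genes over 2% of a library left out, the replicate number as a block, and the removal of single libraries. Permutation tests used scipy 1.17.1.

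Members and lists were chosen with earlier results of these data known. Genes named are the members, the 3 genes with profiles nearest to Malat1 and to Meg3, the genes flanking Meg3, Rian and Peg13, and of other lists those with an unadjusted p under 0.05 and the highest and lowest log2 fold change, and some genes of these lists are not reported here. Ltbp3, Slc25a45, Tigd3, the DESeq2 calls, the snoRNA counts and both ratios were added after their values were seen. Sequences are from GENCODE vM21 (GRCm38) and RefSeq (GRCm38.p6).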

Additional observations from a re-analysis of the deposited data

How the results depend on the processing

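The adjusted call of 0 long noncoding RNAs and the count of 0 past 1.5-fold held under every alternative run, and their median log2 fold change stayed between -0.21 and -0.03. The count of long noncoding RNAs at an unadjusted p under 0.05, 1 as reported, was 0 with quantile normalization and limma and 3 (Meg3, Miat and Pantr1) without the filter. It was 0 to 4 when single libraries were left out, with 4 without HFD replicate 1 and 0 without NCD replicate 2, NCD replicate 3, HFD replicate 2 or HFD replicate 3. Over all genes, the count at an adjusted p under 0.05 was 0 as reported, 2 with DESeq2, 23 without the filter and 0 to 3 with a library left out, with 3 without NCD replicate 3. At a fold change of 1.5 and an unadjusted p under 0.05 it was 176 as reported and 396 without the filter. At an unadjusted p under 0.05 it was 507 as reported, 902 without the filter and 411 to 773 with a library left out, highest without HFD replicate 1. The cause of these differences was not tested, beyond the larger number of genes tested without the filter.

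Several log2 fold changes that passed no threshold turned their sign. That of Wdr25 was -0.017 with library size alone. With single libraries left out the range was -0.0075 to 0.081 for Rian, -0.23 to 0.16 for Dlk1, -0.76 to 0.30 for Rtl1, -0.19 to 0.030 for Begain, -0.13 to 0.15 for Wdr25, -0.0051 to 0.20 for Wars, -0.036 to 0.16 for Ppp2r5c, -0.34 to 0.17 for Chrac1, -0.73 to 0.015 for Ago2, -0.049 to 0.81 for Xist and -0.019 to 0.17 for Fam58b.

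Replicate numbers are shared between the diets, but deviations of same-numbered libraries correlated by -0.03, 0.05 and -0.06, so the numbers were not taken as pairs. With the replicate number as a block, 0 long noncoding RNAs passed an unadjusted p of 0.05 (Miat, log2 fold change -0.36, unadjusted p = 0.0508) and 371 genes did, with 0 genes past the adjusted threshold. The block also took the unadjusted p of Rpl3 (0.0506), Upf2 (0.0757) and Frmd8 (0.0520) above 0.05.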
